A study of Homo sapiens with 12 samples.

Results

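A cluster of miRNA hairpins that includes miR-532, miR-188, miR-500a and miR-660 lies in an intron of CLCN5, the gene of an endosomal chloride/proton exchanger. The description covers 10 mature miRNAs of this cluster, listed as hsa-mir-532-5p, hsa-mir-532-3p, hsa-mir-188-5p, hsa-mir-500a-3p, hsa-mir-362-5p, hsa-mir-362-3p, hsa-mir-501-5p, hsa-mir-501-3p, hsa-mir-660-5p and hsa-mir-502-3p, out of 1733 mature miRNAs listed in any of the 12 libraries. All 10 were listed in each library. They were given by name as products of one polycistron, and the cluster was chosen by the lower counts of miR-188-5p after MYEOV knockdown in AsPC-1 cells. For that reason the AsPC-1 knockdown values of the 10 are given as a description, without p-values, whereas p-values are given for PANC-1 knockdown and for the comparison of the lines. The AsPC-1 control counts of miR-188-5p had a part in the choice too, so its p-values between the lines are only descriptive.

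Small RNA was sequenced from AsPC-1 and PANC-1, which are established human PDAC cell lines, AsPC-1 from ascites and PANC-1 from a primary tumor. In each line, 3 control libraries (WT in the labels) were compared with 3 libraries of cells transfected with siRNA against MYEOV, a candidate proto-oncogene, to ask which miRNAs respond to its depletion. The labels describe the controls as untreated, while the protocol and the study's methods name a negative-control siRNA, so a response to the transfection itself and a response to the loss of MYEOV cannot be told apart. The labels give a harvest at 48 h after transfection and the study's methods an earlier time, and AsPC-1 was grown in RPMI medium and PANC-1 in DMEM, both with serum. Small RNA counts hold no MYEOV mRNA, so its degree of depletion is not known here. The protocol lists the siRNAs siMYEOV-1 and siMYEOV-2, and the number on a knockdown library may be a replicate or an siRNA.

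Most animal miRNAs are cut from a hairpin of a longer transcript, first by Drosha in the nucleus and then by Dicer in the cytoplasm. Several hairpins on one primary transcript are made together, but each mature miRNA then has its own rate of processing, loading into Argonaute and decay. Each hairpin has a 5p and a 3p arm, of which one is usually retained, and the bases of the seed (2 to 8 from the 5′ end) choose the target mRNAs. Of the miRNAs described here, miR-532-5p has been studied as a regulator of the tumor suppressor RUNX3, miR-362-5p of the NF-κB inhibitor CYLD, miR-501-3p of a glutamate receptor subunit in neurons, and miR-188-5p of the choice between bone and fat in marrow stromal cells.

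The 8 hairpin genes lie on chromosome X on the plus strand within 11538 bp of GRCh37, the build to which the authors mapped. They follow in the order MIR532 (chrX:49767754-49767844), MIR188 (chrX:49768109-49768194), MIR500A (chrX:49773039-49773122), MIR362 (chrX:49773572-49773636), MIR501 (chrX:49774330-49774413), MIR500B (chrX:49775279-49775357), MIR660 (chrX:49777849-49777945) and MIR502 (chrX:49779206-49779291). CLCN5 spans chrX:49687206-49863892 on the same strand. Of its 9 annotated transcripts, 3 hold all 8 hairpins in a single intron, and no CLCN5 exon overlaps a hairpin. MIR532 and MIR188 lie together at the upstream end, within 441 bp.

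The mature sequences are shown because several of them are near-copies of one another, which bears on how their reads were counted. RefSeq (GRCh38.p14) held 9 of the 10 miRNAs, all but miR-660-5p, and each of the 9 matched 1 hairpin of the cluster on GRCh37 exactly. The seed is in capitals.
miR-532-5p: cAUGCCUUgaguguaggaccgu
miR-532-3p: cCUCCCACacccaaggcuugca
miR-188-5p: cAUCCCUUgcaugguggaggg
miR-500a-3p: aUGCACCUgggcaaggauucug
miR-362-5p: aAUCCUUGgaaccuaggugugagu
miR-362-3p: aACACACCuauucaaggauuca
miR-501-5p: aAUCCUUUgucccugggugaga
miR-501-3p: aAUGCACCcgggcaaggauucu
miR-502-3p: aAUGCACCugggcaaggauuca

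MiR-501-3p and miR-502-3p had the same seed, AUGCACC, and no other pair of these 9 shared one. The seed of miR-500a-3p, UGCACCU, starts at the next base of the same motif. MiR-500a-3p and miR-502-3p shared an unbroken run of 20 nt (augcaccugggcaaggauuc) of the 22 nt of each. A read that ends within this run matches both hairpins, so the counts of miR-500a-3p and miR-502-3p are uncertain relative to each other. The same holds for the 5p arm of miR-500a (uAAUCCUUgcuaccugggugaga), whose 23 nt occur in both MIR500A and MIR500B.

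The libraries held 3805084 to 7311783 counted reads and 1014 to 1144 listed miRNAs, and a count of 3 was used as the floor (0.410 to 0.788 CPM, the count scaled to a common library total). Floors and binomial intervals cover counting error only, since PCR reads without molecular identifiers are not independent molecules. No pair of replicate libraries was identical. The chi-square per degree of freedom between replicates was 8.13 to 224, and AsPC-1 control replicate 1 stood apart from the other AsPC-1 controls (224 and 183, against 22.1 between those). Where an LFC of one of the 10 changed sign or by over 1.5 times without this library, the value without it is given as well, other than for LFCs near 0. The labels name no sequencing batch and do not say whether replicates were separate cultures, so the p-values measure the spread between these libraries, which may be technical. The 5 miR-200 family markers of epithelial cells had a summed level between 48678 and 52667 CPM over the AsPC-1 libraries, but only between 212 and 276 CPM over those of PANC-1. The 16 markers of other cells and of serum summed to 1429.7 to 1981 CPM, of which miR-126-3p made 1177 to 1819 CPM, and between 2 and 5 of them were at 0 in a group. The lines differed in single markers in both directions. In the controls, miR-1-3p was at 124 to 138 CPM in PANC-1 and 0.547 to 1.54 CPM in AsPC-1. MiR-143-3p was at 41.0 to 48.6 and 0.560 to 1.23 CPM. MiR-126-3p was lower in PANC-1 (1177 to 1339 CPM) than in AsPC-1 (1505 to 1819 CPM). In bulk libraries, fewer cells with a miRNA and less of it per cell cannot be told apart.

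The cluster was a minor part of the small RNA in both lines, and most of it was one strand. Together, the 10 miRNAs took between 0.148% and 0.159% of all counted reads in AsPC-1 libraries, and between 0.418% and 0.509% in PANC-1 libraries. MiR-532-5p alone made between 58.2% and 64.5% of the cluster's reads in AsPC-1 libraries, and between 68.6% and 74.3% in those of PANC-1. The remaining levels are given as CPM normalized within a line with trimmed mean of M-values (TMM) factors. A mature miRNA gives 1 read per molecule whatever its length, but ligation differs between sequences, so an order of levels is an order of reads.

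By mean normalized CPM, the order in AsPC-1 control cells was miR-532-5p (960 ± 114, SD, n = 3), miR-660-5p (191.5 ± 4.63), miR-362-5p (114 ± 11.6), miR-502-3p (105 ± 3.56), miR-501-3p (69.7 ± 7.13), miR-500a-3p (48.5 ± 3.61), miR-532-3p (22.0 ± 8.09), miR-501-5p (15.5 ± 0.561), miR-188-5p (6.92 ± 0.991) and miR-362-3p (3.49 ± 1.22). All 10 took the same position in the PANC-1 controls, from miR-532-5p at 3356 ± 340 CPM to miR-362-3p at 4.52 ± 1.92 CPM. Neighbours in this order whose libraries overlapped were miR-362-5p with miR-502-3p and miR-532-3p with miR-501-5p in the AsPC-1 controls, and miR-501-3p with miR-500a-3p in the PANC-1 controls. After knockdown, the order was the same in PANC-1. In AsPC-1, only miR-362-5p and miR-502-3p changed places, and these overlapped.

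In AsPC-1 cells, miR-188-5p had the lowest LFC of the cluster after MYEOV knockdown. The cluster was chosen for this difference, so its values are only described and nothing is read from their size, separation or rank. Its counts were 52, 41 and 52 reads in the controls and 20, 23 and 22 reads in the knockdown libraries. On the normalized scale, these were 7.69, 5.80 and 7.27 CPM in the controls and 3.45, 3.85 and 3.97 CPM after knockdown, a log2 fold change (LFC) of -0.88 (standard error 0.24). Each knockdown library lay below each control. Leaving out each AsPC-1 library in turn kept the LFC at -0.79 or lower, with -0.79 as the value without AsPC-1 control replicate 1. The LFC of -0.88 was the sixth lowest among the miRNAs tested in this line.

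MiR-532-5p, whose hairpin starts upstream of MIR188 in the same 441 bp, showed no such difference. It had 829, 1037 and 1015 CPM in the AsPC-1 controls and 985, 901 and 995 CPM in the knockdown libraries (LFC 0.00, standard error 0.10). The groups overlapped, and without AsPC-1 control replicate 1, the lowest library, the LFC was -0.09. Its partner arm miR-532-3p had 31.0, 19.7 and 15.4 CPM in the controls against 21.9, 17.9 and 19.1 CPM, an LFC of -0.16 (standard error 0.21). AsPC-1 control replicate 1 was the highest library for this arm, and without it the LFC was 0.17. Without AsPC-1 control replicate 3, the lowest, it was -0.36.

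The hairpins downstream likewise stayed close to their control levels in AsPC-1. MiR-660-5p had 196, 191 and 187 CPM in the controls and 185, 172 and 181 CPM in the knockdown libraries (LFC -0.09, standard error 0.08). These groups did not overlap, but they were separated by less than the range within each. MiR-362-5p (LFC -0.09), miR-500a-3p (0.02), miR-501-5p (0.02), miR-502-3p (0.05) and miR-501-3p (0.17) had standard errors of 0.10 to 0.16, and control and knockdown libraries overlapped for all 5. Without AsPC-1 control replicate 1, the LFC was -0.0021 for miR-362-5p, 0.07 for miR-500a-3p and 0.09 for miR-501-3p. MiR-362-3p had the second lowest LFC, -0.42, but it was counted with only 10 to 31 reads per library, its standard error was 0.36, and its groups overlapped. Leaving out 1 library moved this LFC to between -0.68 (without knockdown replicate 1 or control replicate 3) and -0.22 (without knockdown replicate 3, and -0.23 without control replicate 2).

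Only as a description, 1 of the 10 (miR-188-5p, lower) was among the miRNAs called in AsPC-1 by edgeR at an adjusted p under 0.05, beside 11.4% of the 498 in the fit (4.42% fell and 7.03% rose). Its lower counts had chosen the cluster, so nothing is read from that call, which was absent in 4 of the 6 fits that left out a library (any knockdown library, or control replicate 3). The groups did not overlap for 2 of the 10, both lower, beside 30.5% of all miRNAs tested (13.7% lower and 16.9% higher). The median LFC was -0.05 over the 10 and 0.00 without miR-188-5p, and it was 0.00 over all miRNAs tested. The LFC was negative for 5 of the 10, and for 9 with all 12 libraries in one fit. That fit shifted the LFCs of this line by a median of -0.10, and the median over all miRNAs tested was then -0.07. In the knockdown libraries, 7, 7 and 6 of the 10 lay below their control mean, with library medians of -0.03, -0.07 and -0.05 on the log2 scale.

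**Figure D1:**
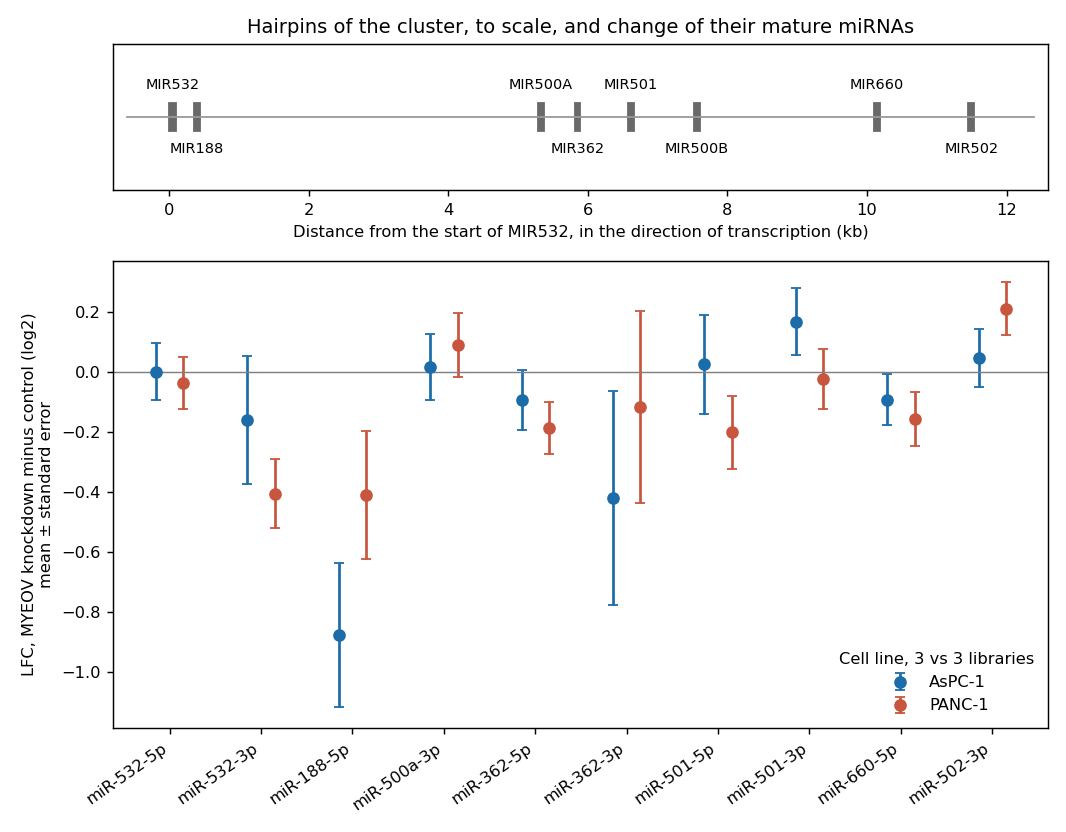
Top, the 8 hairpins of the cluster to scale, with the distance from the start of MIR532 in kb. Bottom, the LFC of each of the 10 mature miRNAs, MYEOV knockdown minus control, in AsPC-1 (blue) and PANC-1 (red), with bars of 1 standard error from the edgeR fit and 3 libraries a group. MiR-188-5p lies at -0.88 and -0.41 and miR-532-5p from the neighbouring hairpin at 0.00 and -0.04, and miR-532-3p reaches -0.41 in PANC-1.

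In PANC-1 cells, miR-532-3p was the one miRNA of the 10 that passed the threshold. It had 82.7, 77.6 and 70.3 CPM in the controls and 64.8, 57.8 and 52.0 CPM in the knockdown libraries, so that each knockdown library lay below each control. It fell with an LFC of -0.41 (standard error 0.12), and its adjusted p over the 551 miRNAs tested was 0.0125 by the edgeR test. Without PANC-1 knockdown replicate 3, the LFC was -0.33 and the adjusted p was 0.0962 (edgeR), and with all 12 libraries in one fit the adjusted p was 0.101 (edgeR). It passed the threshold in the other 5 fits that each left out a library.

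MiR-532-5p from the same hairpin did not pass. It had 2963, 3552 and 3553 CPM in the PANC-1 controls and 3222, 3246 and 3342 CPM after knockdown (LFC -0.04, standard error 0.09), with an edgeR adjusted p of 0.791. The 3p arm is the minor product of this hairpin, with 220 to 413 reads per PANC-1 library against 12346 to 18917 for the 5p arm. The share of the 5p arm was 97.7% ± 0.402 in the controls and 98.2% ± 0.220 after knockdown (SD, n = 3), and these groups overlapped (two-sided exact permutation test, p = 0.2, adjusted p = 0.4 over 12 such tests). The overlap rested on PANC-1 knockdown replicate 1 (98.03%). The controls had 97.28%, 97.86% and 98.06%, and the remaining knockdown libraries 98.25% and 98.47%.

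MiR-188-5p, at 61, 60 and 44 reads in the PANC-1 controls, had 13.4, 11.3 and 11.4 CPM there and 8.07, 10.5 and 8.59 CPM in the knockdown libraries. Every knockdown library again lay below every control. With an LFC of -0.41 (standard error 0.21) the difference did not pass the threshold (adjusted p = 0.164, edgeR), and its 95% interval ran from -0.83 to 0.01. Whether the LFCs of the lines differed was not tested, because the AsPC-1 value had chosen the cluster.

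The other miRNAs of the cluster did not pass the threshold in PANC-1, and their differences were not all of one sign. MiR-502-3p had 208, 195 and 199 CPM in the controls and 241, 229 and 225 CPM after knockdown, the one higher group without overlap (LFC 0.21, standard error 0.09, adjusted p = 0.0858, edgeR). MiR-362-5p had 327, 332.7 and 303 CPM against 292, 275 and 278 CPM (LFC -0.19, standard error 0.09, adjusted p = 0.115, edgeR). MiR-660-5p had 416, 344 and 358 CPM against 325, 340 and 337 CPM (LFC -0.16, standard error 0.09, adjusted p = 0.198, edgeR), and its LFC was -0.085 without PANC-1 control replicate 1, the highest library. The last 2 were lower in each knockdown library than in each control. With scaling by total counts, which shifted the LFCs of this line by a median of -0.15, both fell past the threshold, with LFCs of -0.33 and -0.30 and adjusted p of 0.0142 and 0.0288 (edgeR). For miR-501-5p (LFC -0.20), miR-362-3p (-0.12), miR-501-3p (-0.03) and miR-500a-3p (0.09), the groups overlapped. Without PANC-1 control replicate 1, the LFC of miR-362-3p was 0.26 and that of miR-500a-3p 0.18, while without control replicate 2 that of miR-362-3p was -0.40 and without control replicate 3 that of miR-500a-3p was -0.01. The LFC of miR-501-5p was -0.31 without knockdown replicate 1 and -0.11 without knockdown replicate 2.

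Thus 1 of the 10 passed the threshold in PANC-1, where 22.0% of the 551 miRNAs tested did (9.26% fell and 12.7% rose). With total count scaling, 3 of the 10 passed. The groups did not overlap for 5 of the 10, 4 lower and 1 higher, beside 36.7% of all miRNAs tested (17.1% lower and 19.6% higher). The median LFC of the 10 was -0.14, beside 0.03 over all miRNAs tested. With total counts these medians were -0.29 and -0.12, and with upper-quartile factors -0.088 and 0.07. In the 3 knockdown libraries, 9, 6 and 8 of the 10 lay below their control mean, with library medians of -0.11, -0.09 and -0.17 on the log2 scale. The LFCs of the 10 ran from -0.41 to 0.21 in PANC-1 and from -0.88 to 0.17 in AsPC-1.

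**Figure D2:**
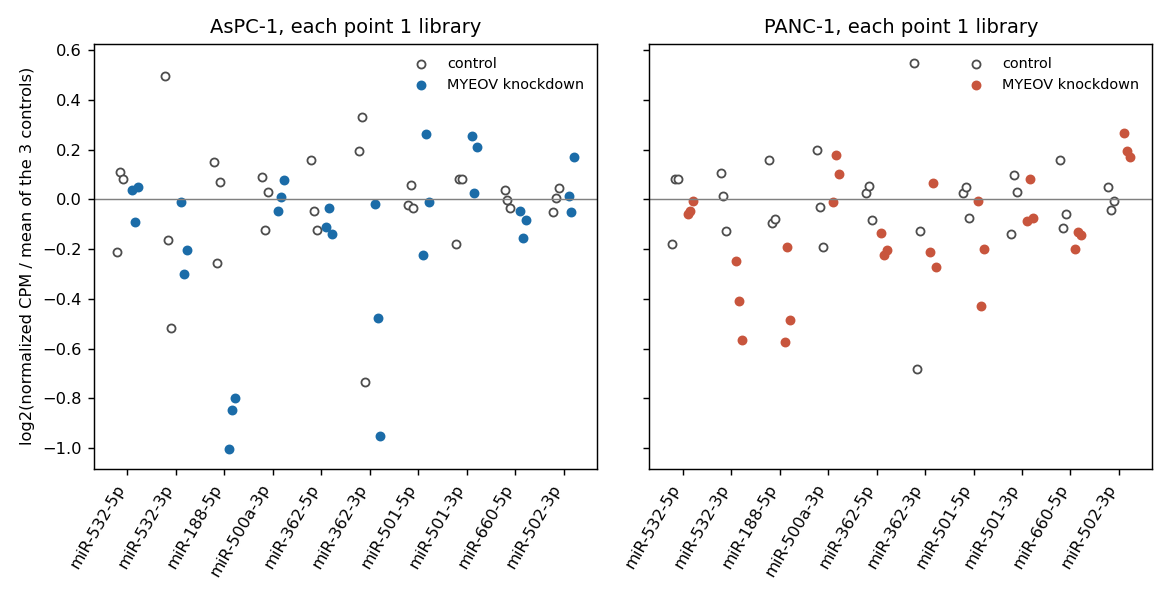
Log2 ratio of the normalized CPM of each library to the mean of the 3 control libraries of its line, for AsPC-1 (left) and PANC-1 (right); open circles are controls and filled circles MYEOV-knockdown libraries. In AsPC-1 the knockdown libraries of miR-188-5p (3.45 to 3.97 CPM) lie clear of its controls (5.80 to 7.69 CPM), while those of miR-362-3p (1.81 to 3.45 CPM) overlap its controls (2.10 to 4.39 CPM).

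The 6 other mature arms of the same hairpins had 0 to 240 reads per library. Of these, 3 were tested in AsPC-1 and 4 in PANC-1. None of them passed an adjusted p under 0.05 in edgeR's quasi-likelihood test or in DESeq2's Wald test in either line, and 0 had an unadjusted p under 0.05 in edgeR. MiR-500a-5p, the highest of them, had 16.0, 13.9 and 10.5 CPM in the AsPC-1 controls and 10.2, 11.4 and 10.5 CPM after knockdown (LFC -0.33, standard error 0.19), with AsPC-1 control replicate 1 as the highest library. In PANC-1 it had 44.7, 45.1 and 48.1 CPM against 42.7, 40.0 and 43.6 CPM (LFC -0.12, standard error 0.12, adjusted p = 0.495, edgeR), without overlap. MiR-502-5p, miR-660-3p and miR-500b-3p had 2 to 31 reads per library, and miR-188-3p and miR-500b-5p had 0 to 5. The low count of miR-188-3p leaves the partner arm of miR-188-5p without a usable value.

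The difference between the lines varied along the cluster. In the control libraries, 9 of the 10 miRNAs were lower in AsPC-1 than in PANC-1 past the threshold with TMM scaling, but 6 of the 10 changed sign with upper-quartile factors. Of the 627 miRNAs tested, 82.8% passed (46.7% lower and 36.0% higher in AsPC-1). For the same 9, the control libraries of the lines did not overlap, beside 82.1% of all miRNAs tested (46.6% lower and 35.6% higher in AsPC-1). The line, its culture medium and anything else that differed between the cultures cannot be told apart.

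MiR-501-5p had the lowest LFC between the lines with all 6 control libraries (-1.74), and miR-532-3p had it without AsPC-1 control replicate 1 (-1.84, against -1.71 for miR-501-5p). Normalized over the 6 control libraries, it had 17.5, 18.2 and 16.8 CPM in AsPC-1 and 59.1, 60.8 and 55.9 CPM in PANC-1, which was 3.35-fold (LFC -1.74 as AsPC-1 minus PANC-1, standard error 0.13, adjusted p = 1.28e-08, edgeR). MiR-532-5p had 952.5, 1169 and 1127.5 CPM against 2746, 3332 and 3338 CPM (LFC -1.54, standard error 0.11, adjusted p = 8.21e-09, edgeR). The partner arm miR-532-3p had 35.7, 22.2 and 17.1 CPM against 76.7, 72.7 and 66.1 CPM (LFC -1.53, standard error 0.21, adjusted p = 6.98e-06, edgeR), and an LFC of -1.84 without AsPC-1 control replicate 1. MiR-362-5p had 146, 124 and 116 CPM against 303, 312 and 285 CPM (LFC -1.22, standard error 0.11, adjusted p = 9.52e-08, edgeR). These 4 were lower in AsPC-1 under each scaling tried, with LFCs of -0.82, -0.61, -0.62 and -0.30 under upper-quartile factors, the scaling that made them smallest.

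The other 6 differed less, and their direction depended on the scaling. With TMM factors, the LFC was -0.92 for miR-500a-3p (54.8 ± 4.53 against 103 ± 13.4 CPM, SD, n = 3), -0.69 for miR-660-5p (216.3 ± 8.90 against 348 ± 33.2 CPM), -0.66 for miR-502-3p (118 ± 2.03 against 187 ± 5.01 CPM) and -0.58 for miR-501-3p (78.6 ± 6.93 against 117 ± 10.4 CPM). Their adjusted p-values in edgeR's quasi-likelihood test were 9.67e-06, 2.35e-05, 1.79e-05 and 0.000367. With upper-quartile factors, which shifted the LFCs of all miRNAs tested by a median of 0.92, the same 4 had LFCs of 0.01, 0.24, 0.26 and 0.35. MiR-188-5p is only described here, because its AsPC-1 control counts had a part in the choice of the cluster. At 7.82 ± 1.17 against 11.2 ± 1.05 CPM, it had an LFC of -0.52 (adjusted p = 0.0270, edgeR). This passed the threshold in 1 of the 6 fits that left out a library (only without AsPC-1 control replicate 1, adjusted p = 0.0183, edgeR). It missed the threshold in DESeq2's Wald test (adjusted p = 0.0539), without the filter, with TMM factors made without the 10 most abundant miRNAs and with all 12 libraries in one fit, and turned to 0.40 with upper-quartile factors. MiR-362-3p had an LFC of -0.08 (adjusted p = 0.828, edgeR), with overlapping groups, and 0.84 with upper-quartile factors.

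The median LFC between the lines was -0.80 over the 10 miRNAs and -0.27 over all miRNAs tested with TMM factors, and 0.12 and 0.65 with upper-quartile factors. In the knockdown libraries of the lines, compared with each other, the median over the 10 was -0.95, as a description, since the AsPC-1 knockdown values had a part in the choice of the cluster. Of the other arms, miR-500a-5p (LFC -1.50), miR-502-5p (-1.64) and miR-500b-3p (-2.43) were lower in the AsPC-1 controls, while miR-660-3p did not pass the threshold (0.15, adjusted p = 0.745, edgeR) and its libraries overlapped. MiR-500b-3p was at 2 to 6 reads in these AsPC-1 libraries.

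**Figure D3:**
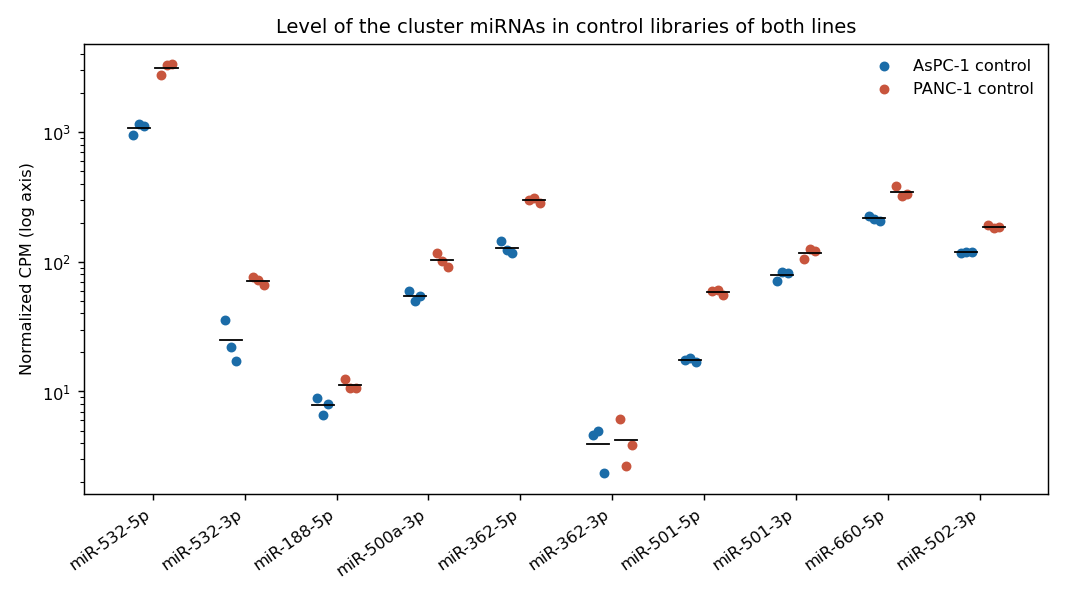
Normalized CPM on a log axis of the 10 miRNAs in the 3 AsPC-1 control (blue) and 3 PANC-1 control (red) libraries, scaled with TMM factors over these 6, with lines at the group means. The gap is wide for miR-501-5p (LFC -1.74), while the libraries of miR-362-3p overlap (LFC -0.08), and with upper-quartile scaling 6 of the 10 changed sign.

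Because the arms of a hairpin are counted in the same library, their ratio does not depend on the scaling. The dominant arm differed along the cluster. The 5p arm held 96.4% to 98.5% of the reads of MIR532, 96.2% to 99.2% of those of MIR362 and 98.3% to 99.7% of those of MIR660 over the 12 libraries. The 3p arm was dominant for MIR501, MIR500A and MIR502, the hairpins whose 3p arms carry the shared AUGCACC motif. Reads of miR-500a-5p may also come from MIR500B, so the share at MIR500A is uncertain.

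At MIR501, the 5p arm held 19.8%, 17.9% and 17.0% of the reads in the AsPC-1 controls and 35.9%, 32.6% and 31.7% in the PANC-1 controls. The libraries did not overlap, and they did not overlap in the knockdown libraries either, with 13.8%, 20.7% and 16.0% in AsPC-1 and 34.6%, 26.0% and 31.5% in PANC-1. In the single library closest to the other line, PANC-1 knockdown replicate 2, the exact 95% binomial interval was 22.7% to 29.5%. The difference between the control means was -15.1 percentage points (two-sided exact permutation test, p = 0.1, the smallest that 3 against 3 allow, adjusted p = 0.4 over 12 tests). With 3 against 3 libraries, this test cannot reach 0.05 for any arm share. Arm shares of hairpins outside the cluster were not computed, so how common such separations are between these lines is not known here.

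At MIR500A, the 5p arm held 21.6% ± 3.58 in the AsPC-1 and 29.5% ± 3.57 in the PANC-1 controls (SD, n = 3), and at MIR502 it held 1.27% ± 0.598 and 2.45% ± 0.394, in both cases without overlap (exact permutation test, p = 0.1 each, adjusted p = 0.4). In the knockdown libraries, those of the lines did not overlap at MIR500A, but at MIR502 they did, with 1.76%, 1.63% and 0.760% in AsPC-1 and 0.963%, 2.57% and 1.63% in PANC-1. The control libraries of the lines overlapped at MIR532, MIR362 and MIR660, and their knockdown libraries overlapped only at MIR532 of these. At MIR362 the knockdown libraries had 96.8%, 97.8% and 98.3% in AsPC-1 and 98.7%, 98.3% and 98.7% in PANC-1, and at MIR660 the separation was likewise under 1 percentage point. Over the comparisons of the lines and of PANC-1 knockdown, 3 of 12 were without overlap, and 6 were when PANC-1 control replicate 1 was left out. The added ones were MIR362 between the lines and MIR500A and MIR660 on PANC-1 knockdown. At MIR500A, 29.4% and 33.2% in the remaining controls then stood against 28.0%, 24.2% and 26.9% after knockdown. At MIR660, 98.92% and 99.07% stood against 99.13%, 99.08% and 99.42%. With all 12 libraries, the control and knockdown libraries of a line overlapped for the arm shares of all 6 hairpins. At several hairpins in each line, this overlap rested on 1 library.

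**Figure D4:**
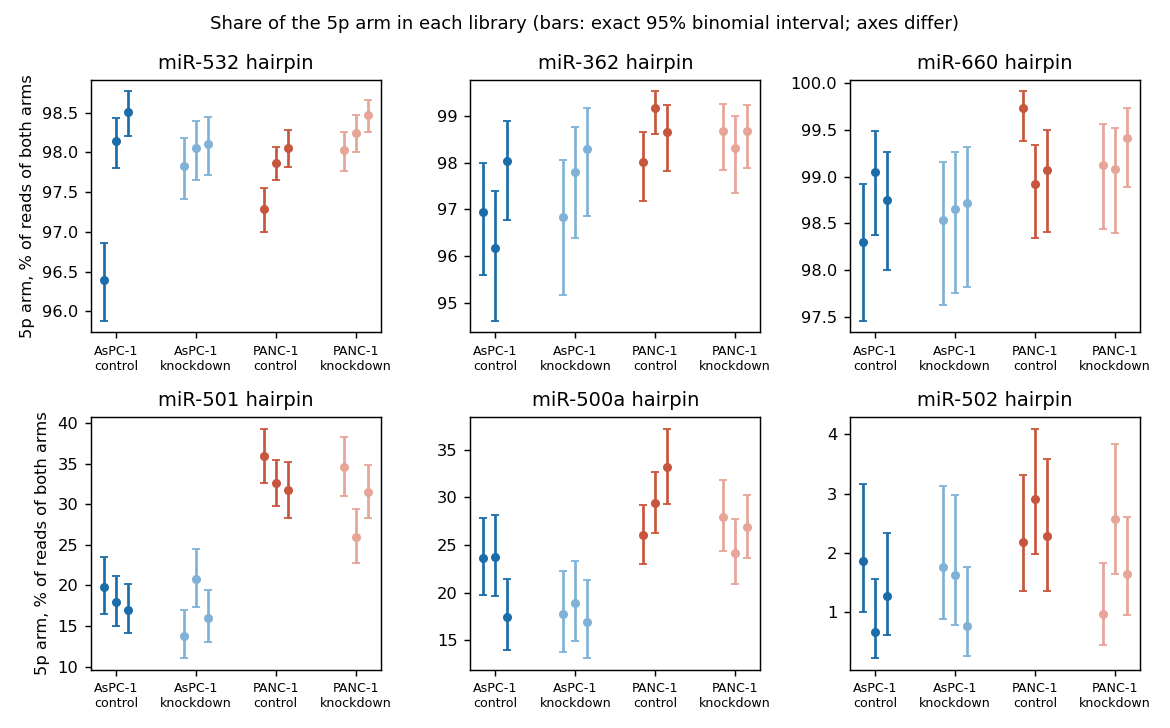
Share of the 5p arm among the reads of both arms, in percent, in each of the 12 libraries for 6 hairpins, with exact 95% binomial intervals and a separate axis for each hairpin. The lines separate at the miR-501 hairpin (17.0% to 19.8% in AsPC-1 controls, 31.7% to 35.9% in PANC-1 controls), while control and knockdown libraries of a line overlap at each hairpin.

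Over the 12 libraries, the profiles of the 10 miRNAs were set against their own median profile (log2 CPM centred on the mean of each miRNA), which is mostly a profile of the line. The root-mean-square difference from it was smallest for miR-500a-3p (0.120) and miR-362-5p (0.124) and largest for miR-362-3p (0.493). MiR-188-5p was at 0.322. Counting error adds to this difference, and miR-362-3p (10 to 31 reads per library) and miR-188-5p (20 to 61) had the fewest reads of the 10. Among the 650 miRNAs tested, the 10 took ranks 2 to 149 by nearness, although the median profile was made from them. The 5 nearest of the 636 miRNAs outside the cluster were miR-425-3p (0.0864), miR-340-5p (0.130), miR-125a-5p (0.137), miR-132-3p (0.142) and miR-338-5p (0.144). The nearest, miR-425-3p, had a mean of 116 and 91.5 CPM in the AsPC-1 control and knockdown libraries and 186 and 190.1 CPM in those of PANC-1.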

How the data were processed

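The authors removed adapters, aligned to hg19 by Bowtie (version not given in the sources used here) and deposited raw read counts per mature miRNA. They kept perfect genome matches within a length window and summed, for each miRNA, its most abundant sequence and those that start at the same base, so isoforms that start elsewhere are left out. A miRNA that a file did not list was given 0. Groups and replicate numbers came from the labels. DE was computed with edgeR 4.0.16 in R 4.3.3, with filterByExpr at a minimum count of 10, TMM factors and the quasi-likelihood test, with Benjamini-Hochberg adjustment over all miRNAs tested and a threshold of 0.05, in each line separately and over the 6 control libraries. The standard error is the absolute LFC divided by the square root of F, and 95% intervals of LFCs are normal ones. TMM factors were 0.978 to 1.05 in AsPC-1, 0.920 to 1.08 in PANC-1 and 0.878 to 1.17 between the lines. Profiles used log2 of CPM plus 0.5. The fits were tested on simulated data.

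The miRNAs named are the 10 given, the other arms of their hairpins and the 5 outside the cluster with the nearest profile. The members and lists were chosen with earlier results of these data known. Alternatives were other scalings, DESeq2 1.42.0, no filter, one fit of all libraries, a replicate block, other thresholds and leaving out each library. Hairpin positions came from GENCODE on GRCh37. Libraries held 3805084 to 7311783 reads.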

Additional observations from a re-analysis of the deposited data

How the results depend on the processing

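The number of the 10 miRNAs past the threshold was 1 in AsPC-1 and 0 to 1 over the fits that left out one library (0 without any one knockdown library or without control replicate 3), 0 at an adjusted p under 0.01, and 1 under the other scalings, filter and test. In PANC-1 it was 1, with 0 to 1 over the same kind of fits, 3 with total count scaling, 0 with all 12 libraries in one fit, 2 at 0.1 and 0 at 0.01. Between the lines it was 8 or 9, and with upper-quartile factors 4 of the 8 were higher in AsPC-1. A replicate block on the library numbers gave 0 in AsPC-1, 2 in PANC-1 (miR-532-3p, and miR-502-3p with an adjusted p of 0.0413, edgeR) and 9 between the lines. Same-numbered libraries had correlations of their deviations from the group means of -0.159 to 0.123 in AsPC-1, 0.0293 to 0.140 in PANC-1 and 0.0956 to 0.268 between the lines, so the numbers were not taken as pairs. In the last comparison each AsPC-1 control correlated best with its own number.

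The median LFC of the 10 in AsPC-1 was -0.05, -0.15 with all 12 libraries in one fit, and -0.076 to 0.0096 without one library (0.0096 without control replicate 1). In PANC-1 it was -0.14, -0.29 with total counts, -0.088 with upper-quartile factors, and -0.19 to -0.11 without one library. Between the lines it was -0.80, -1.14 with total counts, 0.12 with upper-quartile factors, -0.68 with TMM factors made without the 10 most abundant miRNAs, -0.66 with all 12 libraries, -0.95 in the knockdown libraries, and -0.82 to -0.70 without one library. With upper-quartile factors the LFC between the lines reversed to 0.40 for miR-188-5p, 0.0065 for miR-500a-3p, 0.84 for miR-362-3p, 0.35 for miR-501-3p, 0.24 for miR-660-5p and 0.26 for miR-502-3p. The cause of these changes was not tested. The number of arm shares without overlap was 3, and 3 to 6 without one library (6 without PANC-1 control replicate 1, 5 without PANC-1 knockdown replicate 1). Without this control library, the added ones were MIR362 between the lines and MIR500A and MIR660 on PANC-1 knockdown. Without this knockdown library, they were MIR532 and MIR501 on PANC-1 knockdown. How often arm shares separate at hairpins outside the cluster was not computed.

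Over all miRNAs, 57 were called in AsPC-1, 29 with the replicate block and 24 to 102 without one library. The calls of AsPC-1 split into 22 lower and 35 higher, and into 45 and 25 with all 12 libraries in one fit, which shifted the median by -0.10. In PANC-1, 121 were called, 67 with all 12 libraries and 55 to 129 without one. Of the PANC-1 calls 51 fell and 70 rose, against 117 and 26 with total counts and 29 and 65 with upper-quartile factors. Between the lines 293 of 519 were lower in AsPC-1, against 335 of 509 and 200 of 545. MiR-362-3p, at 10 to 31 reads, passed the threshold in none of the 3 comparisons as reported, and between the lines it did with upper-quartile factors (adjusted p = 0.0307, edgeR).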

Other observations

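In AsPC-1 control replicate 1, the 5p arm of MIR532 held 96.4% of the reads of both arms (exact 95% binomial interval 95.9% to 96.9%) and 98.1% and 98.5% in the other controls. MiR-532-5p made 58.2% of the reads of the 10 miRNAs in this library and 64.5% and 64.3% in the others. PANC-1 control replicate 1 likewise had the lowest 5p share of its group at this hairpin (97.3%, against 97.9% and 98.1%) and the lowest share of miR-532-5p among the 10 (68.6%, against 73.7% and 74.3%).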
